A study of Mus musculus with 6 samples.

Results

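The chaperonin CCT, also called TRiC, is the folding machine of the cytosol, and its 8 subunit genes Tcp1, Cct2, Cct3, Cct4, Cct5, Cct6a, Cct7 and Cct8 were read on 6 one-colour Affymetrix arrays of mouse fibroblasts. Every probe set, a group of short probes that reads a transcript, was taken whose platform annotation gave one of these symbols alone. That gave 13 of 12422 probe sets without controls, and each of the 8 genes had at least 1. The 3 groups, each of 2 arrays, were cells with doxycycline at 2 µg/ml (doxycycline group), cells without it (withdrawal group) and cells without it that received estradiol, titled 48 h and given as 1 mM in the labels (estradiol group). All groups share 1 genetic modification: a Tet-off promoter, silenced by doxycycline, that drives Ha-ras and c-myc, which are oncogenes, and constant expression of IRF-1hER, a fusion of the interferon response factor IRF-1 that estradiol activates. The design text names NIH3T3, an immortalised mouse fibroblast line, as the origin, and the titles of replicate 1 name the line 35/1-22. No array of unmodified NIH3T3 cells was analysed here, so the controls carry the oncogenes and the fusion too. Doxycycline and the oncogenes change together between groups, as do estradiol and IRF-1 activity, so their effects cannot be told apart. The title of doxycycline replicate 2 includes estradiol, but the treatment recorded for it is doxycycline only, and it was kept in the doxycycline group.

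CCT is a barrel of a pair of stacked rings, and each ring holds the same 8 different but related subunits in a fixed order. Unfolded actin and tubulin, handed over in part by the smaller chaperone prefoldin, enter the barrel and fold inside it when the ring closes on ATP hydrolysis. The WD-repeat protein Cdc20, which activates the anaphase-promoting complex in mitosis, and G protein beta subunits are further clients. In a fibroblast, which is rich in actin stress fibres and builds a spindle at each division, this makes CCT a supplier of the cytoskeleton. The products of Tcp1, Cct4, Cct2 and Cct5 lie side by side in the ring and bind ATP most strongly, and those of Cct7, Cct8, Cct6a and Cct3 form the other side.

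Values are MAS5 signals, the brightness of a probe set on a linear scale. Trimmed means of the 6 arrays were nearly equal, at 150.09 to 150.1, and array medians were 49.55 to 52.6. The arrays did not all sort by group. A 2-fold or larger gap between withdrawal replicate 1 and estradiol replicate 1 was found in 16 of 7453 tested probe sets, while the 2 withdrawal arrays differed in 920, the doxycycline arrays in 283 and the estradiol arrays in 250. Each doxycycline array had its fewest such gaps with the other. Withdrawal replicate 2 had its fewest, 324, with doxycycline replicate 1. Replicate 1 was extracted with an RNeasy kit and replicate 2 with TRIzol. Of 12 fibroblast markers, 11 were bright enough to test, among them Col1a2 at 3807 to 9197, while Vim had signals of 5.9 to 40.7 in its brightest probe set. The summed fibroblast signal was 33130.0 and 29499.6 under doxycycline, 22989 and 30169 on withdrawal and 22844 and 17812 under estradiol, and its part in the CCT values was not tested. Of the epithelial markers 2 of 6 passed the filter, of the macrophage markers 3 of 7, of the endothelial markers 0 of 5, of the skeletal muscle markers 2 of 5 and of the adipocyte markers 1 of 4. Within these lists the markers did not agree. Epcam stood at 0.7 to 8.1 and Ptprc at 1.7 to 7.4, near 0. The epithelial marker Cdh1 stood at 76.6 to 171.6. The macrophage markers Csf1r, Cd68 and Fcgr1 stood at 81.8 to 155.4, 70.1 to 132.1 and 66.5 to 92.3. Summed over its list, the signal of the macrophage markers was 352 and 269 under doxycycline, 278 and 348 on withdrawal and 312 and 310.1 under estradiol. The epithelial sums lay between 153 and 272, the endothelial sums between 42.2 and 87.1, the skeletal muscle sums between 137 and 229 and the adipocyte sums between 68.9 and 216. In such bulk RNA, fewer cells with a transcript and less of it per cell cannot be told apart.

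Of the 13 CCT probe sets, 11 passed the filter on low signal. The other Tcp1 probe set, at 1.1 to 2.5, and the other Cct6a probe set, at 13.7 to 19.1, were dim on all 6 arrays and were not tested. Where a gene had several tested probe sets, the brightest stands for it and the others are given beside it. Levels of different genes are not compared, since probe sets differ in brightness for reasons of their own.

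The side of the ring that binds ATP most strongly comes first. Tcp1, the alpha subunit and the gene that gave the complex one of its names, had signals of 76.1 and 133 under doxycycline, 162.3 and 76.6 on withdrawal and 138.8 and 150.2 under estradiol. Its withdrawal arrays stood far apart, the lower within 1 unit of doxycycline replicate 1 and the higher above both estradiol arrays. Cct4, the delta subunit, had 930.4 and 773 under doxycycline, 1115 and 1239 on withdrawal and 1035.5 and 1536 under estradiol. Cct4 was thus lowest on the 2 doxycycline arrays, and withdrawal replicate 2 lay above withdrawal replicate 1. Cct2, the beta subunit, had 77.2 and 90.4 under doxycycline, 160.3 and 125.6 on withdrawal and 174.1 and 177.1 under estradiol. The 3 groups of Cct2 did not overlap, in the order doxycycline, withdrawal, estradiol. Cct5, the epsilon subunit, had 1477 and 1469 under doxycycline, 2635 and 1349 on withdrawal and 2546 and 2399 under estradiol. Here withdrawal replicate 2 was the lowest of the 6 arrays and withdrawal replicate 1 the highest. The other Cct5 probe set did not show that gap, with 86.2 and 63.6, then 117.4 and 115.6, then 142.8 and 141.8 in the same order of groups. The 2 Cct5 probe sets correlated at r = 0.70 over the 6 arrays.

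On the other side of the ring, Cct7, the eta subunit, had signals of 659 and 861 under doxycycline, 1463 and 616.5 on withdrawal and 1431 and 1221 under estradiol. Cct8, the theta subunit, had 218 and 198 under doxycycline, 418 and 204 on withdrawal and 382 and 357 under estradiol. For both genes withdrawal replicate 1 was the brightest array, and withdrawal replicate 2 lay below or between the doxycycline arrays. Cct6a, the zeta subunit, had 194 and 172 under doxycycline, 270.4 and 201 on withdrawal and 445 and 352 under estradiol. As for Cct2, its 3 groups did not overlap. This probe set carries the suffix _f_at, which marks probes that can match related transcripts.

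Cct3, the gamma subunit, was read by 3 tested probe sets that differed in one respect. The brightest, an _s_at set whose probes can match more than 1 transcript, had signals of 691 and 857 under doxycycline, 1813 and 663 on withdrawal and 1914 and 1665 under estradiol. The _at set had 388 and 411 under doxycycline, 866 and 571.5 on withdrawal and 908 and 1154 under estradiol. The _f_at set had 123 and 202 under doxycycline, 277 and 143 on withdrawal and 211 and 233 under estradiol. Withdrawal replicate 2 thus lay below, above or between the doxycycline arrays depending on the probe set. The platform annotation assigns all 3 sets to Cct3, but the source sequence it lists for the _s_at set may belong to another gene, which could not be checked here. The identity of the _s_at set as Cct3 is therefore uncertain, and values of Cct3 given without a named set are from it. Correlations between these sets over the 6 arrays were 0.87, 0.86 and 0.72.

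**Figure D1:**
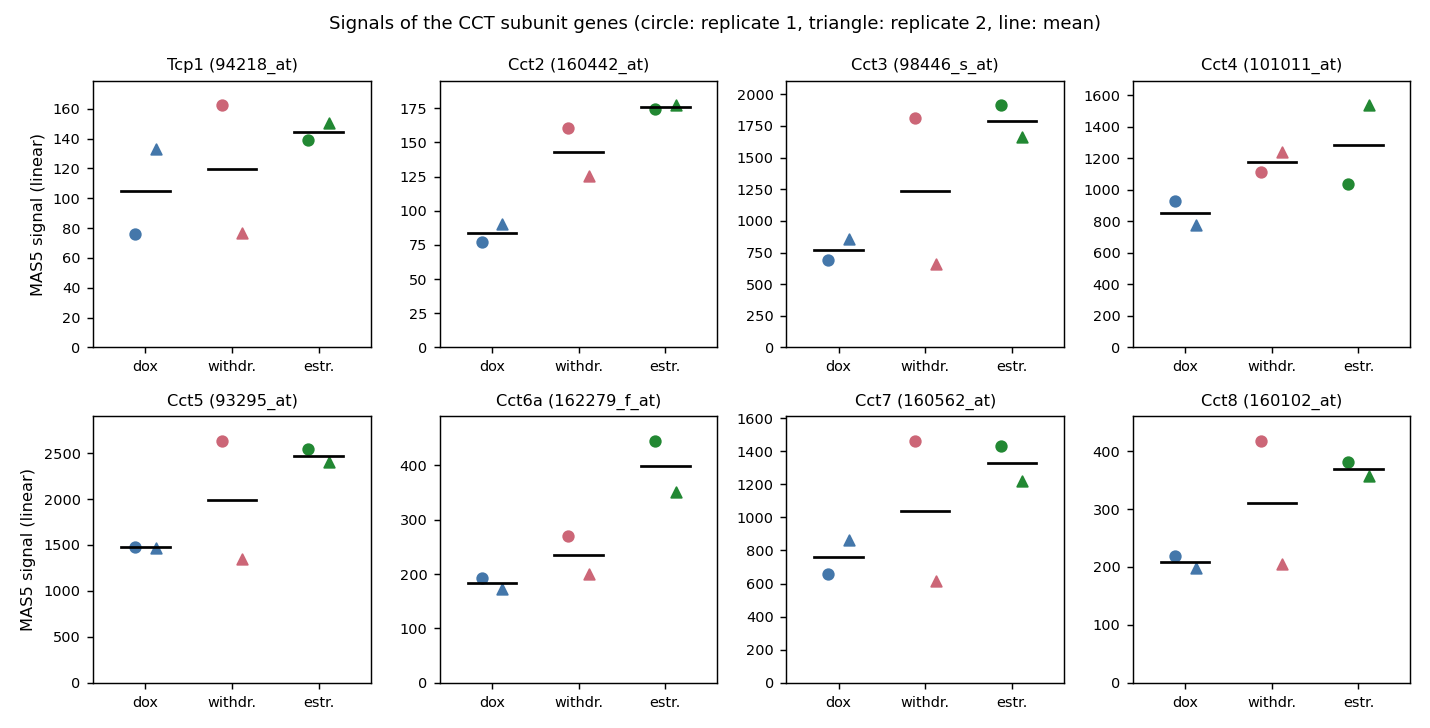
Signal (linear MAS5 scale, y axis from 0) of the brightest probe set of each CCT gene in the doxycycline, withdrawal and estradiol groups, with circles for replicate 1, triangles for replicate 2 and lines for group means. The 2 estradiol arrays lay above both doxycycline arrays for 8 of 8 genes, against 27% of all tested probe sets, while the withdrawal arrays stood far apart for Tcp1, Cct3, Cct5, Cct7 and Cct8, with Cct3, by its uncertain _s_at set, at 1813 and 663.

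Members followed one another closely over the arrays, with Cct4 the least like the rest. Among 28 pairs of genes, Pearson correlations of log2(signal + 32) over the 6 arrays ran from 0.14 to 0.99 with a median of 0.84. The closest pair was Cct5 with Cct8 (0.99), and the most distant was Cct4 with Tcp1 (0.14). The uncertain _s_at set of Cct3 correlated at 0.99 with both Cct7 and Cct5, and the _at set at 0.80 with Cct7 and 0.87 with Cct5. With the _at set in its place, the median over the 28 pairs was 0.81. Against the mean of the other 7 members, Cct3 stood at 0.98, or 0.95 by its _at set, Cct5 at 0.98, Cct8 at 0.96, Cct7 at 0.94, Cct2 at 0.89, Cct6a at 0.86, Tcp1 at 0.78 and Cct4 at 0.43. Without withdrawal replicate 2 the value for Cct4 was 0.68 and that for Cct2 was 0.99. These values describe 6 arrays that share 3 conditions and carry no test.

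Since most members varied together, 4 promoters are shown: Cct3 and Cct7, with several CCAAT boxes each, Cct8, the closest to Cct5, and Cct2, whose groups did not overlap. Cct6a, with 2 CCAAT boxes and groups that did not overlap either, is not shown. The sequences are the 250 bases before the start of the gene, 5′ to 3′ on the gene's strand, from RefSeq on GRCm38.p6. Promoters were matched by symbol for 7 of the 8 genes, in 9 entries, since Cct2 and Cct5 have several starts. In both genes the window of the later start lies past the earlier start, inside the gene. Cct4, the member least like the rest, had no entry. Capitals mark the CCAAT box (CCAAT, or ATTGG on the other strand) and the GC box (GGGCGG, or CCGCCC). The window of Cct3 lies on the plus strand at chr3:88296885-88297134, Cct7 on the plus strand at chr6:85451255-85451504, Cct8 on the minus strand at chr16:87495870-87496119 and Cct2 on the minus strand at chr10:117063853-117064102.
Cct3: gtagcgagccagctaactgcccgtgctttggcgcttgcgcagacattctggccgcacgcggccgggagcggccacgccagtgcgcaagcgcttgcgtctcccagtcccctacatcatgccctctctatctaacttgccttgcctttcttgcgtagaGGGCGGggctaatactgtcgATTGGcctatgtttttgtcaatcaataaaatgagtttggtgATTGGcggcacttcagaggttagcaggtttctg
Cct7: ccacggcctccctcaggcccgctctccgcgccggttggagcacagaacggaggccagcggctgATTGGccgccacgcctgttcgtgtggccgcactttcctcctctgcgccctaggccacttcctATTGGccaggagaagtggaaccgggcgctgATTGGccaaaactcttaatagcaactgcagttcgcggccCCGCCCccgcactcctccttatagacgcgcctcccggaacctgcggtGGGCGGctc
Cct8: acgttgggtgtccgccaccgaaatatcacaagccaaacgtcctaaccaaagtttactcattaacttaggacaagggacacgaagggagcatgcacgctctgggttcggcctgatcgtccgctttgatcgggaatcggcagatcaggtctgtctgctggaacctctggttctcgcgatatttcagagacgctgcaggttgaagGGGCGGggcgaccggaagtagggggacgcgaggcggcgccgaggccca
Cct2: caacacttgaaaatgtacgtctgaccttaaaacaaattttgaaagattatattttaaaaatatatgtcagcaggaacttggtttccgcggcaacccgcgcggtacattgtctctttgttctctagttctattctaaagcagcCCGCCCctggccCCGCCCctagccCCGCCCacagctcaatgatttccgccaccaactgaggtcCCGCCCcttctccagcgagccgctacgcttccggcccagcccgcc
Cct7 held 3 CCAAT boxes and 2 GC boxes, Cct3 held 2 and 1, Cct8 held 0 and 1, and this Cct2 start held 0 and 4. A GC box was found in 8 of 9 entries, against 32.7% of 32851 promoter entries of the same length. Each of the 7 genes had at least 1 such entry. The entry without a GC box was that of the later Cct5 start, which lies past the earlier start. A CCAAT box was found in 4 of 9 entries, those of Tcp1, Cct3, Cct6a and Cct7, against 33.8% of all entries. The ETS motif CCGGAAG was present in 2 of 9 entries, 1 of Cct2 and that of Cct8, against 6.91%. The heat shock element core GAANNTTC was in 1 of 9, that of the later Cct2 start, which lies past the earlier start, against 6.69%. The E-box CACGTG, which Myc and Max bind, was in 0 of 9 entries (6.02% of all), as was the interferon-stimulated response element, read as a pair of GAAA runs with 2 bases of any kind between them (2.98% of all). All motifs were sought on both strands, and 0 matches of different motifs overlapped. A match of letters is not a bound site, and the absence of letters in this window says nothing of the factor.

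The first comparison, withdrawal against doxycycline, asks what the oncogenes change. The CCT genes had higher fitted values in the withdrawal group in 8 of 8, by a median of 0.40 on the log2(signal + 32) scale, with a median of 0.83 within replicate 1 and of -0.04 within replicate 2. Limma, fitted on all 7453 probe sets with Benjamini-Hochberg adjustment, called 0 of the 11 CCT probe sets, and percent called over all probe sets was 0. At an unadjusted p under 0.05, 2 of 11 were higher, against 2.07% of all probe sets. The largest value was that of Cct2 at 0.59 (SE 0.25, limma adjusted p = 0.925), followed by Cct3 at 0.50 (SE 0.44), Cct4 at 0.46 (SE 0.30) and Cct8 at 0.44 (SE 0.34). Cct5 stood at 0.35 (SE 0.35), Cct7 at 0.33 (SE 0.41), Cct6a at 0.31 (SE 0.28) and Tcp1 at 0.12 (SE 0.35), and the adjusted p of the 8 genes lay between 0.925 and 0.969. Groups did not overlap for 5 of 11 probe sets, all higher, against 16.8% of all probe sets, and 0 were lower, against 15%. These belonged to Cct2, Cct4 and Cct6a and to 1 further set each of Cct3 and Cct5, at 0.77 (SE 0.31) and 0.48 (SE 0.25). Over all 5662 genes the median was 0.02.

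Within replicate 1 the CCT genes were higher after withdrawal in 8 of 8, with values from 0.25 for Cct4 to 1.35 for Cct3. Within replicate 2 they were higher in 4 of 8, with values from -0.60 for Tcp1 to 0.66 for Cct4. Cct4 was the gene with the smallest difference in the first and the largest in the second. These values read the brightest set of each gene. Within replicate 2 the _at set of Cct3 gave 0.45, its _f_at set -0.42 and the other Cct5 set 0.63, against -0.36 and -0.12 by the brightest sets of Cct3 and Cct5. Without withdrawal replicate 1 the median of the comparison was -0.073. By their brightest sets, Cct3, Cct5, Cct7, Cct8 and Tcp1 turned negative, Tcp1 at -0.30. Without withdrawal replicate 2 the median was 0.78. Without doxycycline replicate 1 the value of Tcp1 was -0.18.

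The second comparison, estradiol against withdrawal, addresses the effect of activating IRF-1 while the oncogenes are expressed. Fitted values were higher with estradiol in 8 of 8 genes, by a median of 0.34, again with unlike replicate numbers. Cct2, Cct3 and Cct6a were higher in both, Cct2 and Cct3 by 0.10 and 0.08 in replicate 1. Limma called 0 of 11 CCT probe sets and 0% of all, with 1 of 11 higher at an unadjusted p under 0.05 against 0.335% of all. That was Cct6a at 0.69 (SE 0.28, limma adjusted p = 1.00), of which replicate 1 gave 0.66 and replicate 2 gave 0.72. Cct3 stood at 0.68 (SE 0.44), Cct7 at 0.46 (SE 0.41), Cct5 at 0.38 (SE 0.35), Cct8 at 0.30 (SE 0.34), Tcp1 at 0.28 (SE 0.35), Cct2 at 0.25 (SE 0.25) and Cct4 at 0.10 (SE 0.30). Groups did not overlap for 4 of 11 probe sets, all higher, against 11.5% of all, and 0 were lower, against 10.2%. These read Cct2 and Cct6a and, as further sets, Cct3 and Cct5. The median over all genes was 0.00.

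Within replicate 1, whose 2 arrays were nearly alike, the CCT median was -0.04, with 3 of 8 genes higher and values from -0.19 to 0.66. Within replicate 2 it was 0.73, with 8 of 8 higher and values from 0.30 for Cct4 to 1.29 for Cct3. These values too read the brightest sets. Within replicate 1 the _at set of Cct3 gave 0.07, its _f_at set -0.35 and the other Cct5 set 0.23. Without withdrawal replicate 2 the median of this comparison was -0.057. By their brightest sets, Cct3, Cct5, Cct7, Cct8 and Tcp1 turned negative, between -0.17 and -0.022. Cct6a kept 0.50 there. Without withdrawal replicate 1 the median was 0.81. Without estradiol replicate 2 the value of Cct4 was -0.18.

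The third comparison, estradiol against doxycycline, sets cells with the oncogenes and estradiol against cells with the oncogenes silenced. No estradiol treatment is recorded for the latter, but the title of doxycycline replicate 2 names it. The median of this comparison was 0.76, or 0.84 within replicate 1 and 0.77 within replicate 2. It was the one in which every CCT gene differed in 1 direction in both replicate numbers. The smallest of these differences were 0.15 for Cct4 in replicate 1 and 0.14 for Tcp1 in replicate 2. Both estradiol arrays lay above both doxycycline arrays for 11 of 11 tested CCT probe sets, against 27% of all tested probe sets, and 0 lay below, against 24.7%. Limma still called 0 of 11 and 0% of all, with 5 of 11 higher at an unadjusted p under 0.05 against 8.31%. The largest differences were those of Cct3 at 1.18 (SE 0.44, limma adjusted p = 0.315), or 1.29 (SE 0.31, limma adjusted p = 0.255) in its _at set, and Cct6a at 1.00 (SE 0.28, limma adjusted p = 0.256). Cct2 stood at 0.84 (SE 0.25, limma adjusted p = 0.257). Cct7 followed at 0.79 (SE 0.41), Cct8 at 0.74 (SE 0.34), Cct5 at 0.73 (SE 0.35), Cct4 at 0.56 (SE 0.30) and Tcp1 at 0.40 (SE 0.35), with adjusted p from 0.376 to 0.639. The 95% interval of Tcp1, from -0.40 to 1.20, and that of Cct4, from -0.14 to 1.25, included 0, and so did those of Cct5, Cct7 and Cct8. When 1 withdrawal array was left out of the fit, the _at set of Cct3 passed, but its difference stayed at 1.29. Withdrawal arrays do not enter this difference, only the shared estimate of spread. Without either of them the SE of this set was 0.25 in place of 0.31. Under these settings 131 and 136 probe sets were called in all, against 0 with all arrays. Without doxycycline replicate 2, the array with the mixed title, the median was 0.83 and Tcp1 stood at 0.71. Without doxycycline replicate 1 Tcp1 stood at 0.10, and without estradiol replicate 2 Cct4 stood at 0.28. Over all genes the median of this comparison was 0.00. Each group enters 2 of the 3 comparisons, so the 3 sets of values are not independent.

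**Figure D2:**
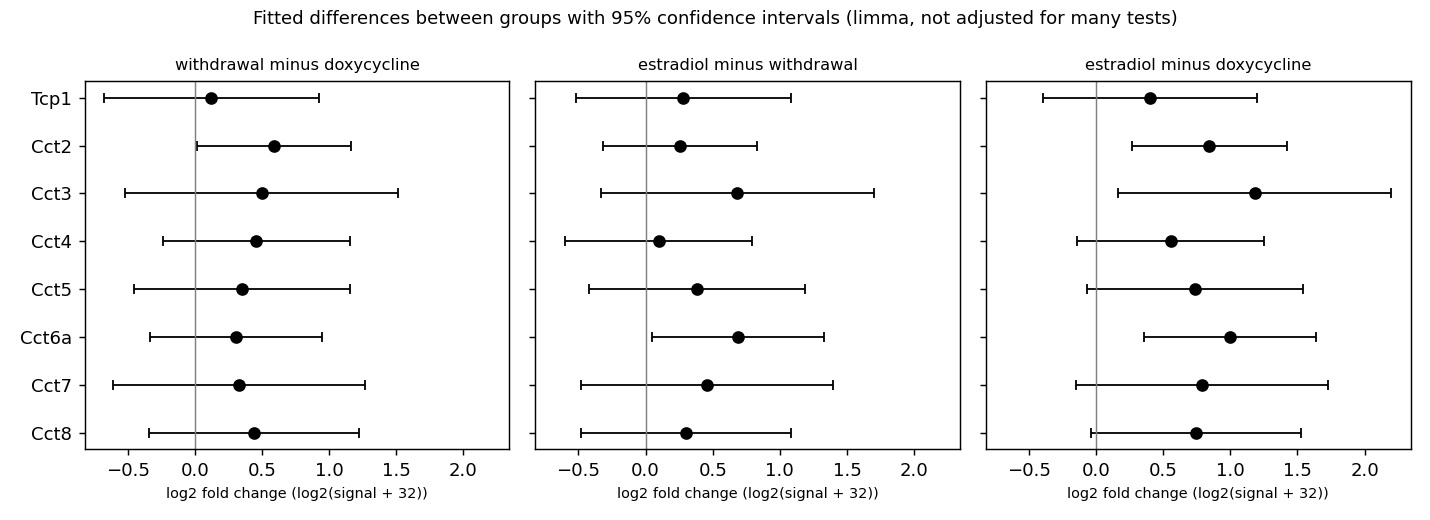
Fitted log2 fold change on the log2(signal + 32) scale (x axis) of each CCT gene (y axis) in the 3 comparisons, with 95% confidence intervals from limma over 2 arrays per group. All 24 points lie above 0 (Cct3 by its uncertain _s_at set), and the intervals are clear of 0 for Cct2 in the first comparison, for Cct6a in the second and for Cct2, Cct3 and Cct6a in the third.

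**Figure D3:**
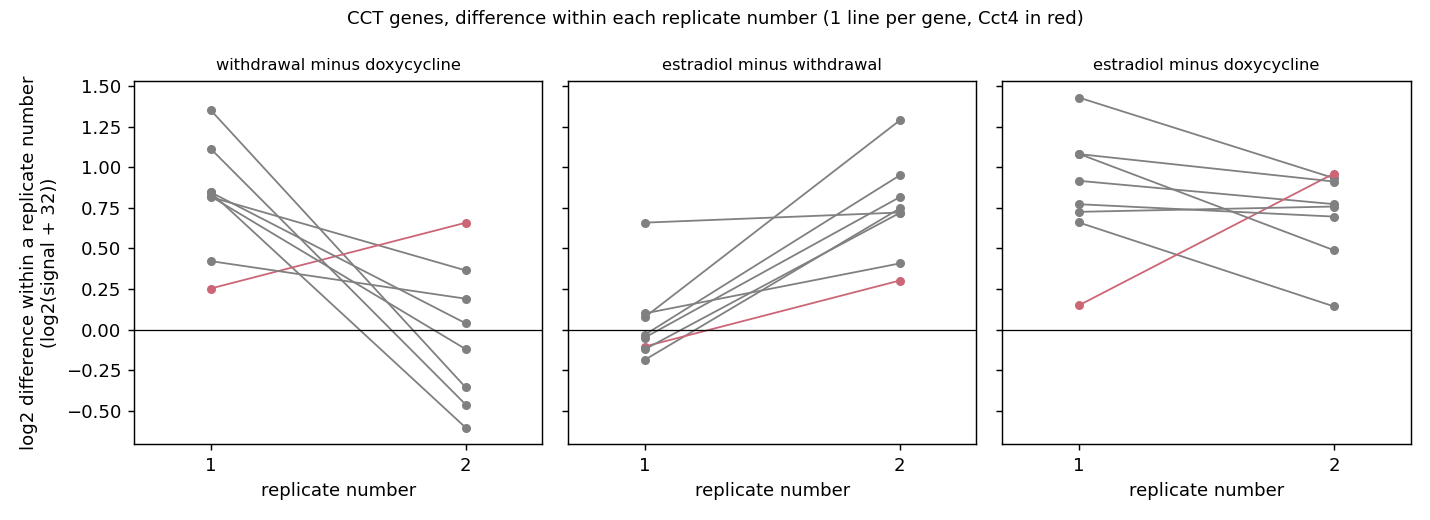
Difference in log2(signal + 32) between groups (y axis) within replicate 1 and replicate 2 (x axis), 1 line per CCT gene and Cct4 in red. In withdrawal against doxycycline the median was 0.83 in replicate 1 and -0.04 in replicate 2, in estradiol against withdrawal -0.04 and 0.73, and in estradiol against doxycycline 0.84 and 0.77.

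Seen array by array, the median of the CCT genes, read by the brightest set of each, stood at a low or a high level. Single genes also lay between, such as Cct2 at -0.03 on withdrawal replicate 2 and Cct6a at 0.06 on withdrawal replicate 1. Relative to each gene's mean over the 6 arrays, the CCT median was -0.42 and -0.40 on the doxycycline arrays and -0.44 on withdrawal replicate 2. It was 0.42 on withdrawal replicate 1 and 0.40 and 0.35 on the estradiol arrays. Between withdrawal replicates 1 and 2 the median gap was 0.88, against 0.08 in size between the doxycycline arrays and 0.09 between the estradiol arrays. These are medians of signed gaps, replicate 1 minus replicate 2. Gaps of single genes ran from -0.15 to 1.41 between the withdrawal arrays. They ran from -0.61 to 0.26 between the doxycycline arrays and from -0.55 to 0.32 between the estradiol arrays. Of the 8 genes, 3 had their lowest signal on withdrawal replicate 2 and 4 their highest on withdrawal replicate 1. Cct4 was the gene above its own mean on withdrawal replicate 2, at 0.19, and Tcp1 the gene above it on doxycycline replicate 2, at 0.13. For Cct3 and Cct5 the place of withdrawal replicate 2 depended on the probe set. There the _at set of Cct3 read 571.5, against 387.6 and 411.1 under doxycycline. The other Cct5 set read 115.6, against 86.2 and 63.6. The _f_at set of Cct3 read 143.2, between its doxycycline signals of 122.8 and 202.

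Cell division genes also differed over the arrays. The medians of 18 tested division genes on the same scale were -0.38 and -1.18 on the doxycycline arrays, 0.61 and -0.56 after withdrawal and 0.68 and 0.86 with estradiol. They thus differed between the doxycycline arrays, on which the CCT median was level. Like the CCT median, they were above 0 on withdrawal replicate 1 and the estradiol arrays and below 0 on the other arrays. In each comparison 18 of 18 division genes had higher fitted values, with 0 called. Between estradiol and doxycycline the groups did not overlap for 18 of 18, all higher, against 27% of all tested probe sets. The part of cell division in the CCT values was not tested. Mki67, which encodes the Ki-67 antigen of cycling cells, read 65.0 and 31.3, then 244 and 129.8, then 277 and 355 in the order doxycycline, withdrawal, estradiol. The median over all genes stayed between -0.01 and 0.01 on every array.

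**Figure D4:**
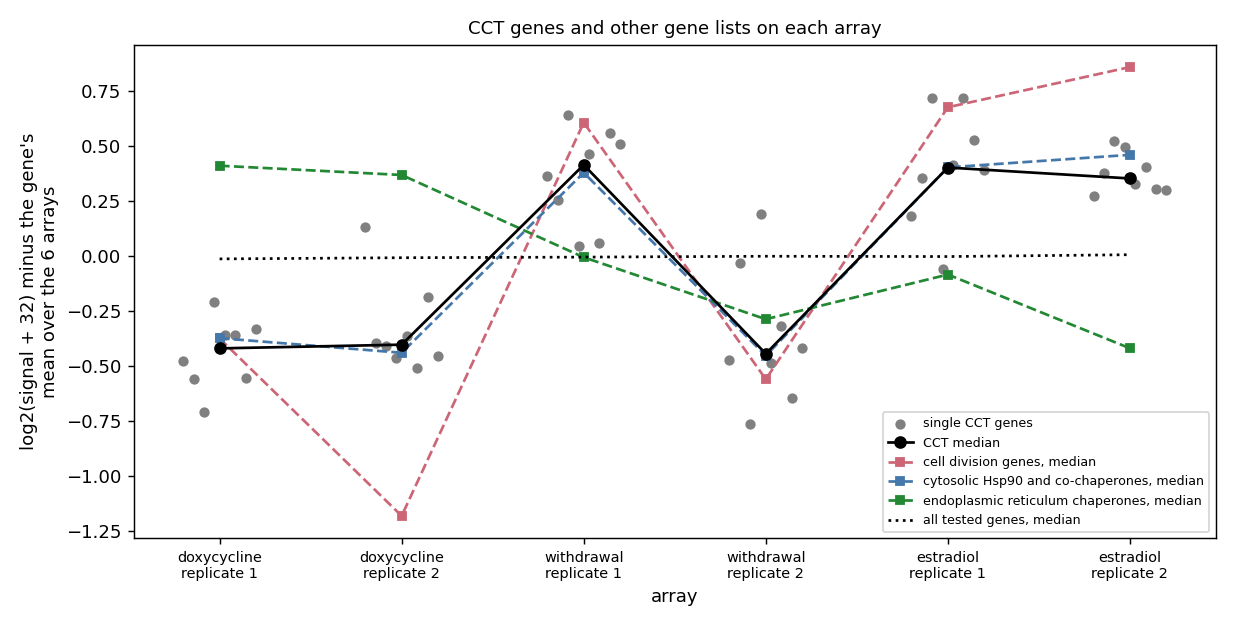
Log2(signal + 32) minus each gene's mean over the 6 arrays (y axis) on each array (x axis), with grey points for the 8 CCT genes, the black line for their median, dashed lines for medians of other gene lists and the dotted line for all tested genes. By the brightest set of each gene, the CCT median lay at -0.42, -0.40 and -0.44 on the doxycycline arrays and withdrawal replicate 2. It lay between 0.35 and 0.42 on the other 3 arrays.

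Genes that work with CCT were taken from lists. Prefoldin, the complex that delivers clients to CCT, was read by 4 tested of 6 listed genes, 3 of them higher and 1 lower in estradiol against doxycycline, with a median of 0.21 and 0 called. Its subunit Vbp1 had 314.5 and 332 under doxycycline, 622 and 433 on withdrawal and 630 and 675 under estradiol, a difference of 0.95 (SE 0.29) between estradiol and doxycycline. As for Cct2, the 3 Vbp1 groups did not overlap. Pfdn2 did not follow the CCT genes, with 433 and 386, then 831 and 97.2, then 860.0 and 187. There replicate 1 and replicate 2 stood apart in 2 of the 3 groups. Pfdn6 had differences of 0.26 (SE 0.34), 0.16 (SE 0.34) and 0.42 (SE 0.34) in the 3 comparisons, and Pfdn5 stood at -0.16 (SE 0.24) in the third. The CCT cofactors Pdcl3 and Txndc9, a phosducin-like and a thioredoxin-like protein that bind CCT, both differed by -0.08 (SE 0.29 and 0.31) between estradiol and doxycycline. The testis form Cct6b had signals of 20.6 to 43.5 and a difference of -0.26 (SE 0.28).

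The clients of CCT did not share 1 direction. Of 5 tested actin genes, 5 were lower in estradiol against doxycycline, with a median of -0.42 and 0 called. Actg1, the cytoplasmic gamma actin, was nearly level at -0.10 (SE 0.27), with signals of 4778 to 6447. Acta2, smooth muscle actin, had 396 and 151 under doxycycline, 110 and 843 on withdrawal and 112 and 104 under estradiol, with -1.33 (SE 0.76) in estradiol against withdrawal. Its highest array was withdrawal replicate 2, on which 7 of 8 CCT genes, by their brightest sets, lay below their own mean. Actb stood at -0.46 (SE 0.31) in an _s_at set with signals of 119.7 to 267.2, and Actc1 at -0.42 (SE 0.32). How well that set reads Actb was not tested.

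Of 10 tested tubulin genes, 7 were higher and 3 lower in that comparison, with a median of 0.34 and 0 called. Tubg1, the gamma-tubulin of the centrosome, had 104.8 and 44.6 under doxycycline, 259.8 and 82.7 on withdrawal and 367 and 387 under estradiol (2.00, SE 0.46, limma adjusted p = 0.255). Tubb6, a beta-tubulin, had 506 and 203, then 1201 and 716, then 1078 and 1329 (1.79, SE 0.44, limma adjusted p = 0.255). Both estradiol arrays of these 2 genes lay above both doxycycline arrays. Among the lower ones, Tubb2a stood at -0.89 (SE 0.50), Tubb4a at -0.74 (SE 0.30) and Tuba8 at -0.37 (SE 0.26).

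Of 6 tested WD-repeat clients, 3 were higher and 3 lower in estradiol against doxycycline, with a median of 0.00 and 0 called. Cdc20 had 828 and 412 under doxycycline, 2972 and 514 on withdrawal and 2930 and 2331 under estradiol (2.10, SE 0.71, limma adjusted p = 0.285). As for Cct7, withdrawal replicate 1 was the highest array of Cdc20 and withdrawal replicate 2 stood near the doxycycline arrays. The G protein beta gene Gnb1 differed by 0.29 (SE 0.26), Gnb4 by -0.66 (SE 0.42) and Mlst8, a subunit of the mTOR complexes, by -0.16 (SE 0.27). The 4 tested tubulin folding cofactors, which take tubulin on from CCT, had a median of 0.01, with Tbca at 0.35 (SE 0.29), Tbce at -0.15 (SE 0.24), Arl2 at 0.04 (SE 0.27) and Tbcb at -0.03 (SE 0.32).

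The Hsp90 system resembled CCT in its values, and the Hsp70 system did so in part. All 7 tested genes of cytosolic Hsp90 and its co-chaperones were higher in each of the 3 comparisons, with medians of 0.45, 0.50 and 0.78 and 0 called. Stip1, which links Hsp70 to Hsp90, had 112.4 and 165.7 under doxycycline, 299 and 183 on withdrawal and 291 and 384 under estradiol (1.12, SE 0.32, limma adjusted p = 0.257 in the third comparison). Its 3 groups overlapped only between withdrawal and estradiol. Fkbp4, an immunophilin, stood at 1.18 (SE 0.39), Ppp5c, a phosphatase bound to Hsp90, at 0.95 (SE 0.32), Cdc37, the kinase-specific co-chaperone, at 0.62 (SE 0.33) and Fkbp5 at 0.52 (SE 0.27). Of 18 tested genes of Hsp70, Hsp40 and their co-chaperones, 14 were higher and 4 lower in the third comparison, with a median of 0.30 and 0 called. The co-chaperones in this list, Bag1, Bag2, Bag3, Hspbp1 and St13, were all among the higher genes. The constitutive Hsp70 gene Hspa8 had 1311 and 1440 under doxycycline, 2070.0 and 1919 on withdrawal and 2100 and 2157 under estradiol (0.62, SE 0.26). The nucleotide exchange factors Hspa4 and Hspa4l stood at 0.67 (SE 0.31) and 0.73 (SE 0.29), the co-chaperone Bag2 at 0.89 (SE 0.37) and the Hsp40 genes Dnajc2, Dnajb1 and Dnajb4 at 0.80 (SE 0.38), 0.34 (SE 0.26) and -0.75 (SE 0.25). The heat shock factors Hsf1, Hsf2 and Hsf4 had 0 tested probe sets, with 2 genes on the array.

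The genes outside the family whose profile over the 6 arrays was most like the mean CCT profile were drawn from 5654 candidates. They were Lrrc59, a ribosome-binding membrane protein, the mitochondrial carrier Slc25a39, Mrps11 and Mrpl12 of the mitochondrial ribosome, the nuclear pore gene Nup107, the nucleolar gene Nop56, Ect2, which acts in cytokinesis, and Cyc1 of the respiratory chain. Their Pearson correlations with the CCT mean ran from 0.992 for Cyc1 to 0.998 for Lrrc59. Lrrc59 had signals of 889 and 970.3 under doxycycline, 1556 and 939.9 on withdrawal and 1571 and 1487.5 under estradiol. Nop56 had 260.5 and 295, then 903 and 243, then 894 and 983. In both genes withdrawal replicate 2 lay at the level of the doxycycline arrays. Among all candidates, 405, or 7.16%, had a correlation of at least 0.9.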

How the data were processed

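Biotin-labelled cRNA from total RNA was hybridised to 1 Affymetrix array per sample, per the labels' protocols. The authors' deposited intensities are MAS5 signals on a linear scale, per the submitters' processing notes, with no software settings named in the sources used here. Of 12488 probe sets, 66 controls were left out. Symbols came from the platform annotation, matched through Entrez identifiers to RefSeq genes of GRCm38.p6, with 0 updates. Signals were turned into log2(signal + 32), which understates changes of dim probe sets. The lowest 40% by mean were left out, and 7453 entered a limma fit (limma 3.58.1, R 4.3.3) with 1 mean per group over 6 arrays, intensity trend, 3 residual and 5.23 prior degrees of freedom, Benjamini-Hochberg adjustment over all tested probe sets, threshold 0.05. The script was tested on simulated data. Whether replicates came from separate cultures is not in the labels, so p-values reflect only array-to-array spread, possibly technical, and 2 arrays per group limit the precision.

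The replicate number goes with the extraction kit in the labels and so pairs the arrays. Deviations from group means of same-numbered arrays correlated at -0.01 (doxycycline and withdrawal), -0.03 (doxycycline and estradiol) and 0.45 (withdrawal and estradiol).

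Named genes were all members, up to 3 genes of each list with the smallest unadjusted p per comparison, and the 8 genes most like the mean CCT profile. Members and lists were chosen with earlier results of these data known. Alternatives were pseudocounts of 16 and 64, no filter or 60% left out, quantile normalization, a replicate block, no trend, each array left out, and other choices of probe set.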

Additional observations from a re-analysis of the deposited data

How the results depend on the processing

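With the replicate number as a block in the fit, the CCT medians were 0.40, 0.34 and 0.76 as without it, 0 probe sets were called in each comparison, and it changed no other call. The pseudocount, the filter, quantile normalization and the intensity trend changed no direction and no call of the medians, counts and 8 genes. Other choices of probe set were run for the 3 medians only: 0.43, 0.30 and 0.76 with the mean over a gene's probe sets, and 0.40, 0.34 and 0.76 with Cct3 by its _at set, which was chosen after seeing the data. Leaving out 1 array did. Over the arrays left out in turn, the CCT median ran from -0.073 to 0.78 for withdrawal against doxycycline, from -0.057 to 0.81 for estradiol against withdrawal and from 0.75 to 0.83 for estradiol against doxycycline. Calls over all probe sets ran from 0 to 26, 0 to 17 and 0 to 136, and CCT calls from 0 to 0, 0 to 0 and 0 to 1. In the first comparison single genes ran from -0.21 to 1.20 for Cct3, -0.12 to 0.83 for Cct5, -0.28 to 0.93 for Cct7, -0.022 to 0.91 for Cct8 and -0.30 to 0.54 for Tcp1. In the second they ran from -0.022 to 1.39 for Cct3, -0.18 to 0.38 for Cct4, -0.091 to 0.86 for Cct5, -0.14 to 1.06 for Cct7, -0.17 to 0.76 for Cct8 and -0.14 to 0.70 for Tcp1. These ranges of single genes read the brightest set of each gene. The cause of the reversals was not tested. In the third comparison 104 of 104 gene values kept their sign. Over 13 alternatives, those of probe set apart, the limma adjusted p of the 8 genes by their brightest sets lay between 0.205 and 1.00, 0.0955 and 1.00, and 0.0544 and 0.958. With 1 array left in a group, that array is assumed to vary like the others. Signals below 32 carry little information on fold changes.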

Other observations

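Chaperones of the endoplasmic reticulum had lower fitted values in both comparisons with doxycycline. All 10 tested genes of the endoplasmic reticulum list were lower after withdrawal than with doxycycline, with a median log2 fold change of -0.44, and 10 of 10 were lower with estradiol than with doxycycline, with a median of -0.49. Limma called 0 of them. Pdia4, a disulfide isomerase, had signals of 401.0 and 401.3 under doxycycline, 232 and 159.6 on withdrawal and 208 and 157.4 under estradiol (-1.02, SE 0.29, limma adjusted p = 0.255 against doxycycline). Hspa5, the Hsp70 of that compartment, had 1638 and 1984, then 1238 and 1179, then 1254.5 and 1037 (-0.65, SE 0.28). Pdia3 had 661 and 856, then 477 and 121, then 496 and 252 (-1.02, SE 0.55), and Dnajc3 stood at -0.63 (SE 0.32), Serpinh1, a collagen chaperone, at -0.50 (SE 0.29) and P4hb at -0.37 (SE 0.49). The arrays of the withdrawal group both lay below the doxycycline arrays in 8 of 10 of these genes, against 15% of all probe sets. The withdrawal arrays differed here too, with list medians of -0.006 in replicate 1 and -0.29 in replicate 2, relative to each gene's mean.

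The 7 tested mitochondrial chaperones were higher in 7 of 7 with estradiol than with doxycycline, with a median of 0.29 and 0 called. Hspe1 and Hspd1, which together form the mitochondrial chaperonin, were the upper values. Hspe1 had signals of 677 and 715 under doxycycline, 1346 and 1002 on withdrawal and 1287 and 2081 under estradiol (1.20, SE 0.33, limma adjusted p = 0.255). Hspd1 had 1687.5 and 1400.4, then 2835 and 1926, then 2944 and 2517 (0.81, SE 0.30). Their groups did not overlap between withdrawal and doxycycline either. Grpel2 stood at 0.33 (SE 0.24), Dnaja3 at 0.26 (SE 0.27) and Clpb at 0.21 (SE 0.32).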
